A study of Mus musculus with 24 samples.

Results

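The transcriptional end of the Hippo pathway was followed in primary vascular smooth muscle cells (VSMCs) that had been loaded with cholesterol. It comprised 10 genes: the TEAD transcription factors Tead1, Tead2, Tead3 and Tead4, their coactivators YAP (Yap1) and TAZ (Wwtr1), and the target genes Ctgf, Cyr61, Ankrd1 and Amotl2. They were taken by gene name out of 24453 genes named in the RNA table, with earlier results of these data known. Each was represented by its transcript row of highest mean RPKM. All 10 were among the 12648 genes tested, whose estimated reads exceeded 70 in 1 library or more. The VSMCs came from thoracic aortas of C57BL/6J mice aged 8 to 10 weeks and were used below passage 5. Cholesterol-loaded cells received a complex of cholesterol with methyl-β-cyclodextrin (Chol:MβCD) at 20 µg/mL, for either 24 h or 48 h, in medium with 0.2% BSA. Control cells were in the same BSA medium but had no complex, and were taken at 0, 24 and 48 h, so that effects of cholesterol and of its carrier cannot be told apart. Polyadenylated RNA was sequenced in 3 cholesterol libraries for each of 24 h and 48 h, and in 3 control libraries for 0 h, 3 for 24 h and 2 for 48 h. The paper discarded control replicate 1 at 48 h, which had few reads and did not group with its replicates. It also left control replicate 1 at 0 h out of its comparison with in vivo data, as it did not group with its replicates. That library is kept here. Acetylated lysine 27 of histone H3 (H3K27ac), a mark of active promoters and enhancers, was profiled by ChIP-seq with 1 library and 1 input for each of the same 5 groups. The study calls the RNA replicates biological, while the labels number them without saying what was separate, so p-values measure the spread between these libraries.

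In the Hippo pathway, the kinases MST1 and MST2 activate LATS1 and LATS2, which phosphorylate YAP and TAZ and hold them in the cytoplasm. Without that phosphorylation, YAP and TAZ enter the nucleus, where they bind DNA through TEAD factors and raise transcription of genes for matricellular proteins, cytoskeletal regulators and feedback inhibitors. Their activity is thus set mostly by phosphorylation and location, which RNA levels do not measure. In VSMCs the pathway is known for its response to stretch, matrix stiffness and growth factors, and for its part in the balance between contractile and proliferative states.

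Of the 7 smooth muscle markers, Acta2 and Tagln were highest. They averaged 28.3 and 41.4 RPKM in the cholesterol group of 24 h, against 33.6 and 46.9 RPKM in its control. In that cholesterol group Cnn1 averaged 18.1, Smtn 16.6, Myh11 2.54, Myocd 0.483 and Des 0.428 RPKM. Myocd was higher than in its control, which averaged 0.367 RPKM. It was also higher at 48 h, with 0.570 RPKM in cholesterol-loaded and 0.315 RPKM in control cells. The means of all other smooth muscle markers were lower with cholesterol at both times. Of 5 fibroblast markers, Col1a1 was above Acta2, at 72.0 RPKM in that group and 74.5 RPKM in its control. Pdgfra, Dcn, Lum and Fbln1 averaged at most 0.653 RPKM in that group and 0.768 RPKM in its control. The endothelial markers Pecam1, Cdh5, Kdr, Tek and Vwf summed to at most 0.632 RPKM in a library. Of 6 macrophage markers, Ptprc, Adgre1 and Itgam were at or near 0, with no library above 0.0071 RPKM, and the sum of all 6 was 3.85 to 3.91 RPKM in cholesterol-loaded cells against 2.20 to 3.82 RPKM in control cells at 24 h. At 48 h that sum was 6.21 to 6.90 RPKM in cholesterol-loaded and 4.10 to 4.16 RPKM in control cells. Cd68 was its largest part, averaging 5.03 RPKM in cholesterol-loaded and 2.29 RPKM in control cells at 48 h. Csf1r was also higher with cholesterol there, at 0.517 against 0.338 RPKM. Lyz2 went the other way, at 1.077 RPKM in cholesterol-loaded and 1.498 RPKM in control cells. The means of these genes differed in the same directions at 24 h. The 7 smooth muscle markers summed to 104 to 110 RPKM in cholesterol-loaded cells at 24 h, against 125 to 132 RPKM in control cells, and to 122 to 142 RPKM at 48 h, against 161 RPKM in both control libraries. In bulk RNA, fewer cells of a type cannot be told apart from less RNA per cell. The RNA libraries held 2726786 to 7590862 tags, where a tag is a read position counted at most once per strand.

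The binding site of the TEAD factors was looked for first at the members' own promoters. The core searched was GGAATG, which reads CATTCC on the other strand, in the 300 bases from 250 before to 50 after each start site listed in RefSeq (GRCm38.p6). Promoters were listed for 7 members, Cyr61 under its newer name Ccn1, and not for Tead1, Tead4 and Ctgf. Of the 7, 5 held the core, beside 14.7% of all 32817 mouse promoters of this length. Counted from the start site, Ankrd1 held it at 2 positions, -210 and -123. Cyr61 held it once at -103, Amotl2 at -65, Yap1 at -141 and Wwtr1 at -170, where each position is the first base of the match. Tead2 and Tead3 did not hold these letters in this window. The 250 bases before the start site are given for these 5 promoters, 5′ to 3′ on the strand of the gene, with the TEAD core in capitals, since they show the same letters at 3 targets and at both coactivators.
Ankrd1 (chr19:36119845-36120094, minus strand): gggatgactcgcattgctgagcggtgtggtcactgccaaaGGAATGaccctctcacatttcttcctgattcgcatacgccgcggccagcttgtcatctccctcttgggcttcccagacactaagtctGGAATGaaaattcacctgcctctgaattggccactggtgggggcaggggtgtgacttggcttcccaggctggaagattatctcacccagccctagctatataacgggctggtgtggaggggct
Cyr61 (chr3:145649986-145650235, minus strand): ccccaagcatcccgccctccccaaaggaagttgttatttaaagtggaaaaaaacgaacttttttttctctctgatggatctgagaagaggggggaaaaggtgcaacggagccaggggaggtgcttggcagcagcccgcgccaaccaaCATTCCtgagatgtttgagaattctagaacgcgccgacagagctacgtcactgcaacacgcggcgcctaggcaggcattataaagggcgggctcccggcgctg
Amotl2 (chr9:102717554-102717803, plus strand): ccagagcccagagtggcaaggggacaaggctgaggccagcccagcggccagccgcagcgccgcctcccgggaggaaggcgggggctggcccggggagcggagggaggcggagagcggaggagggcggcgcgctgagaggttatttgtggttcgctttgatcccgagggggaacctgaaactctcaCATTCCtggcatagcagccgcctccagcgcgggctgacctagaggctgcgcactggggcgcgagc
Yap1 (chr9:8004597-8004846, minus strand): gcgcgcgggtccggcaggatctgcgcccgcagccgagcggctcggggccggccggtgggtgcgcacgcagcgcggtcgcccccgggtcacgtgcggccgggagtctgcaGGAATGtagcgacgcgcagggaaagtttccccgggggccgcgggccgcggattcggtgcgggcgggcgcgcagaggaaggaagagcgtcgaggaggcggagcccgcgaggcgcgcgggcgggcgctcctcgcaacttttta
Wwtr1 (chr3:57575877-57576126, minus strand): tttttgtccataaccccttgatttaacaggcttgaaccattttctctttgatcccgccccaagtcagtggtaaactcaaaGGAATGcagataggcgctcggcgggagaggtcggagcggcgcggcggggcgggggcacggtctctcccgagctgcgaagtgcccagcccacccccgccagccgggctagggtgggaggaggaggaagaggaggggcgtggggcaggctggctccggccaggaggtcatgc
A match is a description of sequence and does not show that a factor was bound there. None of the 7 promoters held the AP-1 element TGANTCA, the C/EBP-ATF element TGATGNAA or a CArG box, the site of serum response factor, which were present in 7.81%, 3.97% and 1.63% of all promoters. All were searched on both strands, and with no match none overlapped a TEAD core.

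Levels of the 10 genes were compared with each other in tags per kilobase of exon, scaled to library size as RPKM is, since the deposited RPKM divides by the whole gene body with introns. In control cells at 24 h this level was 188 ± 5.65 for Ctgf, 137 ± 5.29 for Cyr61 and 132 ± 1.65 for Ankrd1 (SD, n = 3). Amotl2 followed at 83.6 ± 1.13, ahead of all TEAD factors and coactivators. Next came Tead1 at 53.2 ± 0.864, Yap1 at 51.4 ± 2.16, Tead2 at 48.4 ± 1.48, Tead3 at 44.5 ± 1.82 and Wwtr1 at 36.7 ± 1.61. Tead4 was lowest at 11.6 ± 0.931. In that order, the libraries of Cyr61 and Ankrd1 overlapped, as did those of Tead1 and Yap1 and those of Yap1 and Tead2. All other neighbours were separate in the 3 libraries. Tags in introns count towards these levels.

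**Figure D1:**
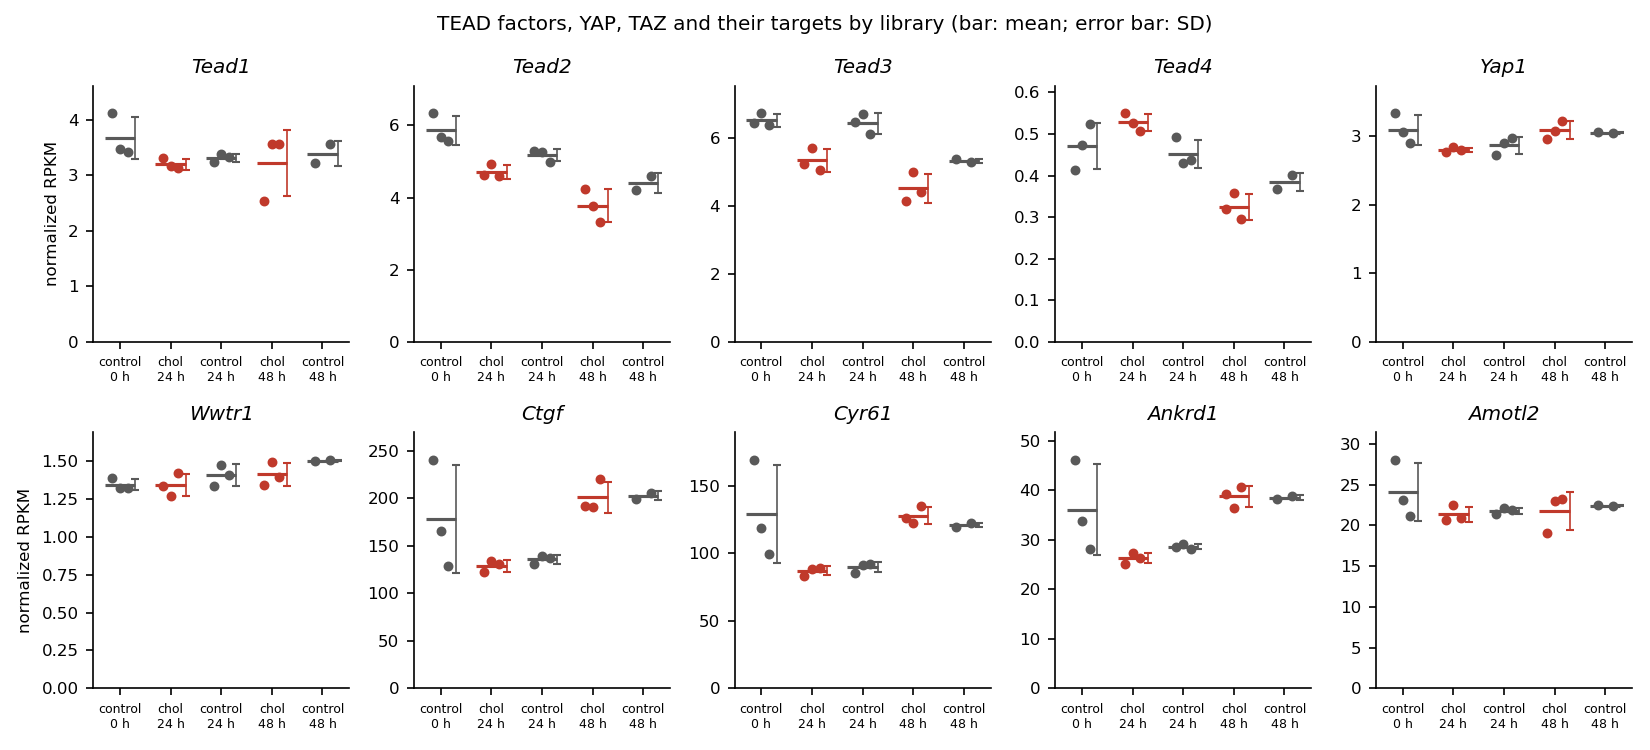
Normalized RPKM (y axis, from 0) of each of the 10 genes in every RNA library, by group (x axis, control 0 h, then cholesterol and control at 24 h and at 48 h). Points are libraries, red for cholesterol-loaded and grey for control cells, lines are means and error bars SD. Tead3 is lower in every cholesterol library than in the control libraries of the same time, and the 3 control libraries at 0 h spread widely for Ctgf, Cyr61 and Ankrd1.

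Whether cholesterol changed the RNA of these genes was asked at 24 h and at 48 h. At each time 1 of the 10 was called, Tead3, which was lower in cholesterol-loaded cells. The other 9 were not called. Calls were made with limma on log2(normalized RPKM + 1) at a Benjamini-Hochberg adjusted p under 0.05 over all genes tested. On this scale fold changes of genes with low values are understated. Of all genes tested, 2.48% were called higher and 2.96% lower at 24 h, and 11.9% were called higher and 12.9% lower at 48 h. A count of 1 in 10 is thus near the background at 48 h, and at 24 h it is 1 gene. Over the 10 genes the log2 fold change had a median of -0.04 at 24 h and -0.05 at 48 h, beside -0.0024 and -0.0017 over all genes tested.

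Tead3, the family member best known from placenta and differentiating epithelia, had 5.24, 5.70 and 5.05 RPKM in cholesterol-loaded cells at 24 h, against 6.46, 6.71 and 6.10 RPKM in control cells. Every cholesterol library lay below every control library. The log2 fold change was -0.23 (SE 0.059, limma adjusted p = 0.0423), or 0.83 times the control mean. At 48 h Tead3 had 4.15, 4.99 and 4.39 RPKM in cholesterol-loaded cells and 5.37 and 5.28 RPKM in control cells, again without overlap. The log2 fold change at 48 h was -0.20 (SE 0.066, limma adjusted p = 0.0419), or 0.847 times the control mean. In the F-test over both contrasts, which called 24% of all genes, Tead3 was the only member called (limma adjusted p = 0.00938). Both calls stood close to the threshold: over 27 alternative settings each was kept in 14, with adjusted p of 0.00108 to 0.174 at 24 h and 0.00869 to 0.197 at 48 h, and the direction was kept in all 27. Leaving out any 1 of the control libraries at 24 h ended the 24 h call, and leaving out either control library at 48 h ended the 48 h call.

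Tead2, a TEAD factor prominent in embryonic tissue, had 4.62, 4.93 and 4.59 RPKM in cholesterol-loaded cells at 24 h and 5.29, 5.27 and 4.98 RPKM in control cells. At 48 h it had 4.24, 3.75 and 3.33 RPKM in cholesterol-loaded cells and 4.20 and 4.6 RPKM in control cells, where 1 cholesterol library overlapped the controls. Its log2 fold changes of -0.11 (adjusted p = 0.441) and -0.18 (adjusted p = 0.105) were not called. Tead2 was called lower with array weights at 24 h (adjusted p = 0.0438) and at 48 h (0.0114), and at 48 h also without cholesterol replicate 1 (0.018).

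Tead4, known from trophectoderm and from muscle differentiation, was the least abundant TEAD factor and the only one whose difference changed sign between the times. It had 0.55, 0.525 and 0.508 RPKM in cholesterol-loaded cells at 24 h, above the 0.492, 0.430 and 0.436 RPKM of control cells. At 48 h it had 0.320, 0.357 and 0.295 RPKM in cholesterol-loaded cells, below the 0.369 and 0.400 RPKM of control cells. The groups did not overlap at either time. The log2 fold changes were 0.07 at 24 h (adjusted p = 0.21) and -0.06 at 48 h (adjusted p = 0.186), neither past the test. The difference between the effects at 48 h and at 24 h was -0.14 (SE 0.045, unadjusted p = 0.00935, adjusted p = 0.109). It was called with quantile normalization (adjusted p = 0.0316) and with array weights (adjusted p = 0.0254). Library totals for this gene were small, at 75 to 325 tags.

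Tead1, the TEAD factor that serves smooth and cardiac muscle genes through the MCAT element, had 3.32, 3.16 and 3.13 RPKM in cholesterol-loaded cells at 24 h, against 3.24, 3.38 and 3.33 RPKM in control cells. At 48 h its RPKM was 2.53, 3.57 and 3.56 in cholesterol-loaded cells, where replicate 1 stood below every other library of the series, and control cells had 3.23 and 3.56 RPKM. Its log2 fold changes were -0.04 (95% interval -0.23 to 0.16) and -0.07 (-0.29 to 0.15).

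Yap1 and Wwtr1, the coactivators that carry the activation domain, were not called at either time. Yap1 had 2.77, 2.84 and 2.80 RPKM in cholesterol-loaded cells at 24 h and 2.73, 2.90 and 2.97 RPKM in control cells. At 48 h it had 2.96, 3.09 and 3.23 RPKM in cholesterol-loaded cells, on both sides of the 3.06 and 3.05 RPKM of control cells. The 95% intervals of its log2 fold change were -0.13 to 0.08 at 24 h and -0.10 to 0.13 at 48 h. Wwtr1 had 1.34, 1.27 and 1.42 RPKM in cholesterol-loaded cells at 24 h and 1.34, 1.48 and 1.41 RPKM in control cells. At 48 h Wwtr1 had 1.346, 1.497 and 1.398 RPKM in cholesterol-loaded cells, all below the 1.501 and 1.509 RPKM of control cells. The intervals of Wwtr1 were -0.13 to 0.05 and -0.15 to 0.04. These intervals hold for log2 values with 1 added.

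Ctgf, which encodes the matricellular protein CCN2 and is the most used readout of YAP and TAZ, had 122, 134 and 131 RPKM in cholesterol-loaded cells at 24 h and 130.5, 139 and 138 RPKM in control cells. At 48 h Ctgf had 193, 191 and 220.3 RPKM in cholesterol-loaded cells, around the 199 and 206 RPKM of control cells. The groups overlapped at both times, with log2 fold changes of -0.07 (95% interval -0.54 to 0.39, adjusted p = 0.924) and -0.01 (-0.54 to 0.51, adjusted p = 0.977).

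Cyr61, the gene of the related matricellular protein CCN1, had 83.1, 88.6 and 89.3 RPKM in cholesterol-loaded cells at 24 h and 85.2, 91.3 and 91.8 RPKM in control cells. At 48 h Cyr61 had 126, 123 and 135 RPKM in cholesterol-loaded cells, above the 120 and 122 RPKM of control cells, but by less than the test could call (log2 fold change 0.08, SE 0.19, limma adjusted p = 0.811). The SE rests on 1 spread per gene shared by all 5 groups. For Cyr61 the SD was 36.1 RPKM in control cells at 0 h and 1.62 to 6.54 RPKM in the other groups. Ctgf and Ankrd1 also spread most in control cells at 0 h, with SDs of 57.1 and 9.19 RPKM.

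Ankrd1, an ankyrin repeat protein of the sarcomere and nucleus of muscle cells, had 25.2, 27.3 and 26.4 RPKM in cholesterol-loaded cells at 24 h, below the 28.6, 29.3 and 28.1 RPKM of control cells. The difference of -0.12 on the log2 scale (SE 0.13, adjusted p = 0.727) was not called. At 48 h Ankrd1 had 39.2, 36.5 and 40.7 RPKM in cholesterol-loaded cells and 38.2 and 38.8 RPKM in control cells.

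Amotl2, an angiomotin-like protein that binds YAP and restrains it, had 20.6, 22.5 and 20.96 RPKM in cholesterol-loaded cells at 24 h and 21.4, 22.1 and 21.9 RPKM in control cells. At 48 h Amotl2 had 19.1, 23.0 and 23.3 RPKM in cholesterol-loaded cells and 22.5 and 22.4 RPKM in control cells, so that replicate 1 was again lowest, as it was for Tead1. The log2 fold changes were -0.03 (95% interval -0.24 to 0.18) and -0.05 (-0.28 to 0.19).

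**Figure D2:**
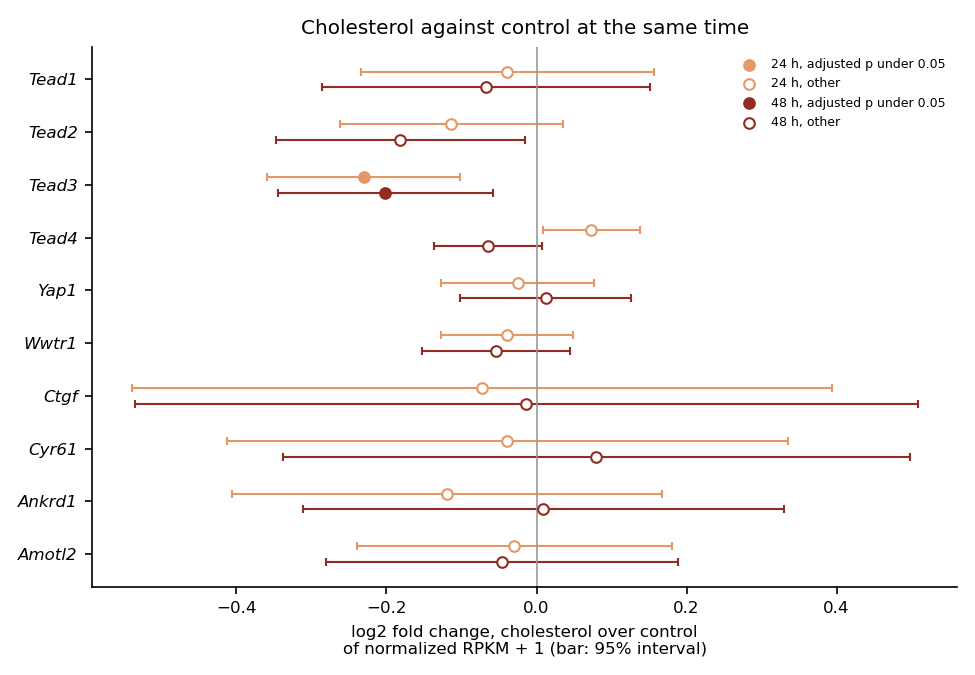
Log2 fold change of normalized RPKM + 1, cholesterol over control at the same time (x axis), for each of the 10 genes (rows), with 95% intervals from limma. Filled points passed an adjusted p of 0.05: Tead3 at 24 h (-0.23) and at 48 h (-0.20).

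The difference between the cholesterol effects at 48 h and at 24 h was called for none of the 10 by limma, beside 2.3% of all genes called higher and 3.06% called lower in that contrast. Only Tead4 had an unadjusted p under 0.05, a looser limit for which the share of all genes is not given.

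Levels were also compared over time in culture. In control cells at 48 h against 0 h, 2 of the 10 were called, both lower, beside 7.66% of all genes called higher and 8.06% called lower. Tead2 averaged 4.40 ± 0.282 RPKM at 48 h (SD, n = 2) and 5.86 ± 0.412 RPKM at 0 h (n = 3), with a log2 fold change of -0.34 (limma adjusted p = 0.00954). Tead3 averaged 5.33 ± 0.0571 RPKM at 48 h and 6.505 ± 0.181 RPKM at 0 h, with a log2 fold change of -0.25 (limma adjusted p = 0.0252). Both calls ended without control replicate 2 at 48 h, which leaves 1 library in that group, and that of Tead3 also without replicate 3 at 48 h or replicate 2 at 0 h. From 0 h to 24 h in control cells none of the 10 was called by limma, beside 4.45% of all genes called higher and 3.81% called lower. At the looser limit of an unadjusted p under 0.05 there were 3 (Tead2, Cyr61 and Ankrd1, all lower at 24 h), with no share of all genes given for it.

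In cholesterol-loaded cells at 48 h against 24 h, 5 of the 10 were called, 2 higher and 3 lower, beside 12.2% of all genes called higher and 11.3% called lower. This contrast shares its libraries with both cholesterol contrasts. For the called genes and Ctgf, control means moved in the same direction from 24 h to 48 h, a contrast that was not tested. In control cells Tead2 went from 5.18 to 4.40 RPKM, Tead3 from 6.42 to 5.33 and Tead4 from 0.45 to 0.38. There Ankrd1 went from 28.7 to 38.5 RPKM, Cyr61 from 89.4 to 120.8 and Ctgf from 135.8 to 202.7. Tead4 averaged 0.324 ± 0.0314 RPKM at 48 h and 0.528 ± 0.0208 RPKM at 24 h (SD, n = 3), a ratio of 0.614 and a log2 fold change of -0.21 (limma adjusted p = 0.000648). This call held under all 26 alternatives that tested Tead4. The level of Tead4 also rose with library depth among the 3 control libraries at 0 h, at 0.4125, 0.4746 and 0.5233 RPKM. The libraries at 48 h were less deep than those at 24 h, and the part of depth in this call was not tested. Tead2 averaged 3.77 ± 0.458 RPKM at 48 h and 4.71 ± 0.19 RPKM at 24 h (log2 fold change -0.26, limma adjusted p = 0.0168), a call that ended without cholesterol replicate 2 at 24 h or replicate 3 at 48 h. Tead3 averaged 4.51 ± 0.43 RPKM at 48 h and 5.33 ± 0.334 RPKM at 24 h (log2 fold change -0.20, limma adjusted p = 0.0287), which ended without cholesterol replicates 1 or 2 at 24 h or replicates 1 or 3 at 48 h. Among the targets, Ankrd1 averaged 38.8 ± 2.16 RPKM at 48 h and 26.3 ± 1.07 RPKM at 24 h, a log2 fold change of 0.54 (limma adjusted p = 0.0125), which missed the threshold only without cholesterol replicate 1 at 24 h (0.0505). Cyr61 averaged 128 ± 6.54 RPKM at 48 h and 87.0 ± 3.37 RPKM at 24 h, a log2 fold change of 0.55 (limma adjusted p = 0.0371). The Cyr61 call was kept in 12 of 27 alternatives, and leaving out any 1 library other than control replicates 1 and 3 at 0 h ended it (adjusted p of 0.0525 to 0.117). For Ctgf the averages were 201 ± 16.6 RPKM at 48 h and 129 ± 6.1 RPKM at 24 h, a log2 fold change of 0.63 (adjusted p = 0.0504), which was called in 11 of 27 alternatives.

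The higher RPKM of Ctgf, Cyr61 and Ankrd1 at 48 h moved together with library depth. Libraries at 48 h held 3633890 to 4968431 tags, against 6759228 to 7590862 tags at 24 h. The name of the deposited table gives 1 tag per position, under which an abundant short transcript can run out of positions in a deep library. Ctgf held 0.800 to 1.37 tags per base of its exons in the 14 libraries, Cyr61 0.619 to 1.06 and Ankrd1 0.508 to 0.969, where about 2 tags are the most a base can hold if each strand counts apart. For the other 7 genes the highest value was 0.618, in Amotl2. The 3 control libraries at 0 h show the same order within 1 group. The library of 2726786 tags had 241 RPKM of Ctgf, that of 4782239 tags had 166 RPKM, and that of 6994304 tags had 128 RPKM. Across the 14 libraries, Pearson's r between log2 tags and the log2 level was -0.98 for Ctgf, -0.97 for Cyr61, -0.97 for Ankrd1 and -0.93 for Yap1. It was -0.68 for Amotl2 and, in the other direction, 0.69 for Tead4. The remaining members had -0.47 (Tead1), -0.38 (Wwtr1), 0.14 (Tead2) and 0.22 (Tead3). These are descriptions over libraries that share groups and depth. Among genes that reached more than 1 tag per base of exon, 124 in all, the median log2 fold change of cholesterol-loaded cells at 48 h against 24 h was 0.32, and among the 4788 genes with at most 0.1 tags per base it was -0.03. Of those 124, which include Ctgf and Cyr61, 21.8% were called higher and 0% lower in that contrast. Of the 726 genes with 0.5 to 1 tags per base, which include Ankrd1, 35.3% were called higher and 2.07% lower. The depth's part in the time differences of these targets was not tested. With quantile normalization, which sets all libraries to 1 distribution, the log2 fold change was 0.10 for Cyr61 (limma adjusted p = 0.223) and 0.29 for Ankrd1 (limma adjusted p = 0.00168). For Ctgf it was 0. The method gives a gene the same value wherever its rank is the same, so this 0 describes rank and cannot show whether the level of Ctgf changed. A correction for positions hit more than once, added after the data were seen, gave 0.49 for Cyr61 (adjusted p = 0.0235), 0.50 for Ankrd1 (adjusted p = 0.0067) and 0.55 for Ctgf (adjusted p = 0.0387). It took tags as spread evenly over both strands of the exons, and levels still fell with depth after it. In order of rising depth, the 3 control libraries at 0 h then had 313, 238 and 199 RPKM of Ctgf. Cyr61 had 206, 154 and 140 RPKM there, and Ankrd1 54.3, 42.2 and 37.1 RPKM. Depth was compared between cholesterol and control libraries of the same time, with 7094034 to 7590862 tags in cholesterol and 6759228 to 7351846 tags in control libraries at 24 h. At 48 h the cholesterol libraries held 3633890 to 4968431 tags and the control libraries 3836759 and 4020100 tags.

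**Figure D3:**
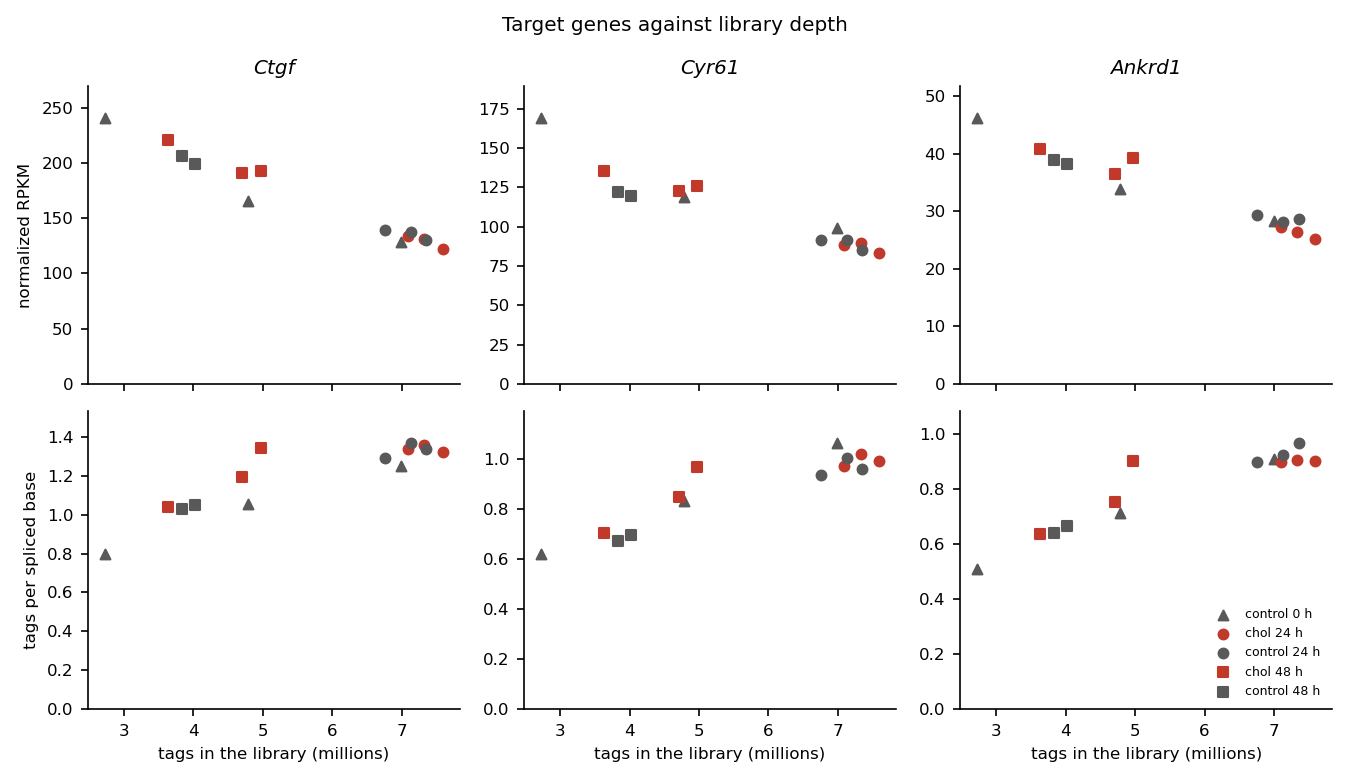
Normalized RPKM (top) and tags per base of spliced transcript (bottom) of Ctgf, Cyr61 and Ankrd1 (y axes, from 0) against the tags in each of the 14 libraries (x axis, total tags). Red points are cholesterol-loaded and grey points control cells, with triangles for 0 h, circles for 24 h and squares for 48 h. RPKM is lower and tags per base are higher in the deeper libraries, also among the 3 control libraries at 0 h.

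Other genes of the pathway were counted from 3 lists. Of 15 Hippo kinases, adaptors and upstream activators, none was called at 24 h by limma, and 2 had an unadjusted p under 0.05 (Sav1 at 0.00544 and Frmd6 at 0.0274, both lower with cholesterol). At 48 h 2 were higher and 2 lower, at a median log2 fold change of -0.03 over the list, and these counts were close to the 11.9% higher and 12.9% lower among all genes. Wwc1, the scaffold KIBRA that brings LATS kinases to the membrane, averaged 0.799 ± 0.0905 RPKM in cholesterol-loaded cells and 1.11 ± 0.0303 RPKM in control cells at 48 h (log2 fold change -0.23, limma adjusted p = 0.00186). Taok2, a kinase that can activate MST kinases, averaged 9.75 RPKM in cholesterol-loaded and 11.2 RPKM in control cells (log2 fold change -0.18, limma adjusted p = 0.0114). Its relative Taok3 went the other way, with 0.894 RPKM in cholesterol-loaded and 0.669 RPKM in control cells (log2 fold change 0.18, limma adjusted p = 0.00291). Frmd6, a FERM protein that acts upstream of the kinases, averaged 1.18 ± 0.0714 RPKM in cholesterol-loaded and 0.981 ± 0.0224 RPKM in control cells at 48 h (log2 fold change 0.14, limma adjusted p = 0.0351). Its effect at 48 h was above that at 24 h by 0.24 on the log2 scale (limma adjusted p = 0.036). The kinases Lats1 and Lats2 and the tumour suppressor Nf2 were not called, with adjusted p of 0.557 to 0.983 over both times.

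Of 21 regulators and cofactors of YAP, TAZ and TEAD, 18 were tested, and Dchs1, Vgll1 and Vgll2 were too low. None of the 18 was called at 24 h by limma or had an unadjusted p under 0.05. At 48 h 2 were higher and 1 lower, at a median log2 fold change of -0.09 over the list, beside the same 11.9% and 12.9% of all genes. The lower gene was Amot, which encodes angiomotin, a partner of YAP at the membrane. It averaged 0.716 ± 0.153 RPKM in cholesterol-loaded and 1.10 ± 0.182 RPKM in control cells at 48 h (log2 fold change -0.30, limma adjusted p = 0.007). The higher genes were Csnk1e, casein kinase 1 epsilon, which primes YAP for degradation (5.17 RPKM in cholesterol-loaded and 4.12 RPKM in control cells, limma adjusted p = 0.0101), and the LIM protein gene Wtip (4.55 RPKM in cholesterol-loaded and 3.66 RPKM in control cells, limma adjusted p = 0.00693). Without control replicate 3 at 48 h none of the 18 was called in either direction. Vgll4, which competes with YAP for TEAD factors, was not called (adjusted p of 0.99 at 24 h and 0.44 at 48 h).

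The remaining 18 genes of a target signature known from human tumours gave 17 tested genes, without Foxf2. At 24 h 2 were higher and none was lower, and at 48 h 3 were higher and 2 lower, with median log2 fold changes of 0.04 at both times. The shares called over the whole table were 2.48% (higher) and 2.96% (lower) at 24 h, against the 11.9% and 12.9% given above for 48 h. Gadd45a, a stress and DNA damage response gene that other pathways also induce, had the largest change of the signature. It averaged 28.9 ± 0.41 RPKM in cholesterol-loaded and 17.6 ± 0.238 RPKM in control cells at 24 h. At 48 h it averaged 37.7 ± 2.44 RPKM in cholesterol-loaded and 13.0 ± 0.0913 RPKM in control cells. Its log2 fold changes were 0.69 (limma adjusted p = 1.59e-05) and 1.46 (limma adjusted p = 8.7e-08). Nt5e, the ectonucleotidase CD73, was called higher at both times but with group means of at most 0.287 RPKM. Tgfb2, the cytokine TGF-β2, averaged 5.52 ± 0.523 RPKM in cholesterol-loaded and 3.94 ± 0.347 RPKM in control cells at 48 h (log2 fold change 0.40, limma adjusted p = 0.00491). F3, which encodes tissue factor, averaged 0.882 ± 0.3 RPKM in cholesterol-loaded and 1.34 ± 0.0344 RPKM in control cells at 48 h (log2 fold change -0.33, limma adjusted p = 0.0367). The RNA-binding protein gene Rbms3 was also lower at 48 h (log2 fold change -0.09, limma adjusted p = 0.0408). Without either control library at 48 h no gene of the signature was called lower.

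**Figure D4:**
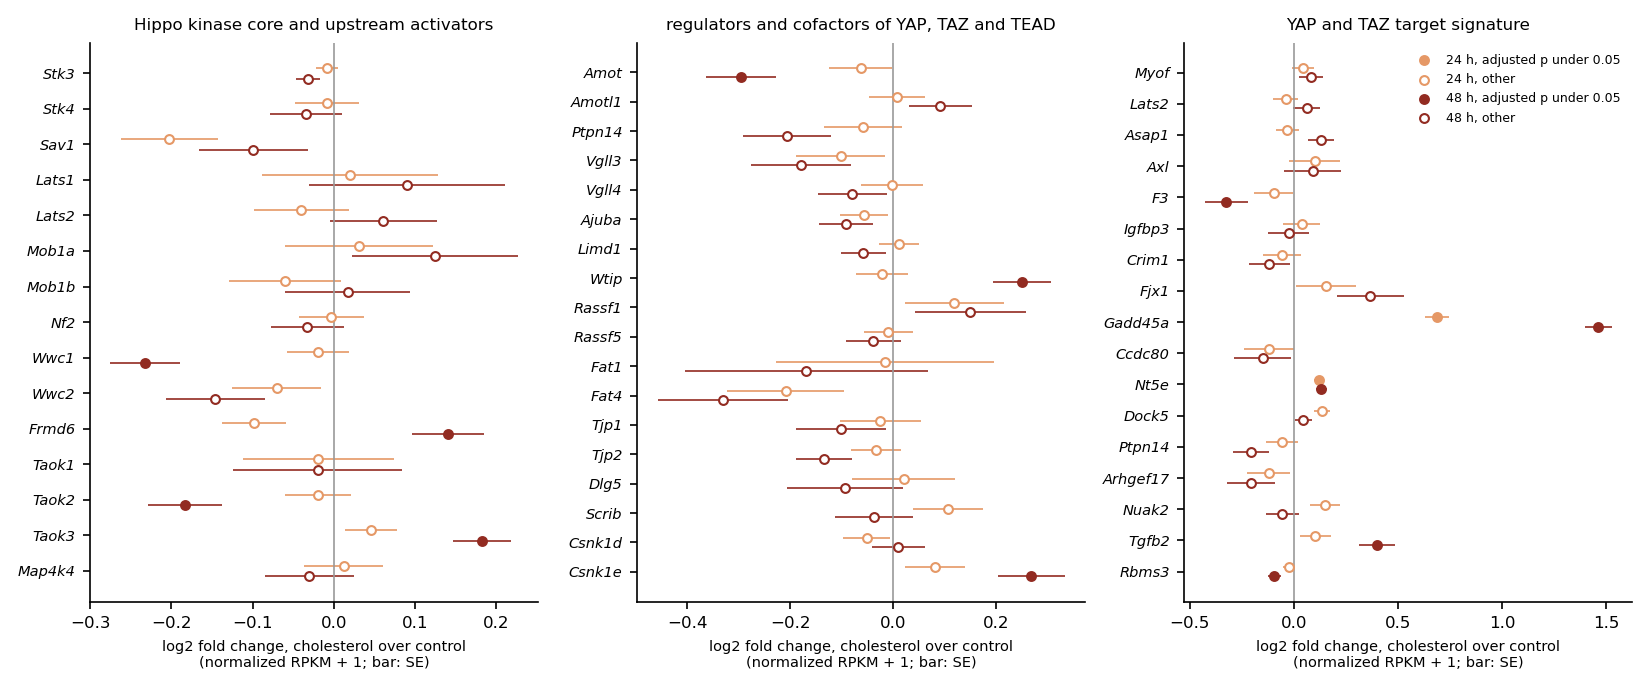
Log2 fold change of normalized RPKM + 1, cholesterol over control (x axes, with SE bars), for the tested genes of 3 lists: Hippo kinases and activators, regulators and cofactors, and the target signature without the 4 target genes described above. Filled points passed an adjusted p of 0.05; Gadd45a stands furthest from 0, at 0.69 at 24 h and 1.46 at 48 h.

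The genes whose pattern over the 14 libraries was most like each member were found by Pearson's r on the same log2 scale. For Ctgf these were Fth1, Ptgis and Copg1 (r of 0.995, 0.995 and 0.993), which reached 1.31, 1.31 and 0.699 tags per base of exon themselves. Cyr61 was most like Arl6ip5, Anxa5 and Ppib, and Ankrd1 most like Akr1a1, Ddost and Gabarap, with r of 0.989 to 0.993 and 0.703 to 1.10 tags per base. For Yap1 the closest were Elovl1, Atp6v0e and Plpp1 (r of 0.955 to 0.956). Tead3 was closest to Zmym3, Trak1 and Plekhh2 (0.952 to 0.955), Tead2 to Serinc2, Nacad and Ctxn1 (0.945 to 0.968), Tead4 to Eppk1, Cntrl and Vars2 (0.932 to 0.949) and Tead1 to Plxna1, Map1b and Map1a (0.934 to 0.947). Amotl2 was closest to Fbn1, Piezo1 and Ap2a1 (0.929 to 0.931). Wwtr1 had no close match, with Tgfbr2 first at 0.843. Among the members themselves, r was 0.99 between Ctgf and Ankrd1, 0.87 between Tead1 and Amotl2 and 0.85 between Tead2 and Tead3. These values describe libraries that share groups, depth and the spread of tags over positions.

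H3K27ac was then read at the start sites. Signal is given as tags per region scaled to 10000000 tags in a library, summed over regions that overlap 2 kb on either side of the start site of the kept transcript. With 1 library per group there is no test, and intervals cover counting error only. The library of control cells at 0 h stood apart, with 16.94% of its tags in regions, beside 37.35% to 43.77% in the other 4, and it is not compared here. A region was present at the kept start sites of all 10 genes in the 4 libraries at 24 and 48 h, and of 8 genes at 0 h. At 0 h the kept start sites of Tead1 and Tead2 had none. The other start site of Tead1, upstream at position 112679320 of chromosome 7, had a region at 0 h with a signal of 131.0. Over all genes tested, the share with a region was 87.9% with cholesterol and 87.8% in control cells for 24 h, 84.1% with cholesterol and 85.8% in control cells for 48 h, and 83.1% in control cells for 0 h.

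Summed over their regions, the 4 target genes carried more signal than the 6 factors and coactivators in both libraries at 24 h. These regions differed widely in length. Per kilobase at the kept start sites in control cells at 24 h, Cyr61 (145.6) and Amotl2 (105.4) stayed above all 6, but Ctgf (96.4) was below Tead3 (98.1). The upstream start site of Tead1, outside this ranking, had a signal of 640.8 over 5334 bp in that library. Per kilobase this was above Amotl2 and below Cyr61. Ankrd1, at 67.5 per kilobase, was also below Yap1 (88.0), Wwtr1 (78.0) and Tead4 (72.7). Amotl2 had 2962 in cholesterol-loaded and 2605 in control cells at 24 h, over a region of 24862 and 24710 bp, which put it at percentile 99.8 of all genes with a region in each library. Cyr61 had 1447 in cholesterol-loaded and 1434 in control cells, Ctgf had 1061 and 1063, and Ankrd1 had 899 and 793, with all 3 genes at percentile 98.1 or above. Among the factors, Wwtr1 had 569 in cholesterol-loaded and 554 in control cells, Tead3 had 448 and 420, Yap1 had 331 and 270, and Tead4 had 231 and 198. Tead2 was below the median gene, with 101 and 100.0 at percentiles 36.4 and 40.6.

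Cholesterol-loaded cells were then set against control cells. At 24 h the ratio of cholesterol to control had a median of 1.10 over 10674 genes, with 2.1% at 2-fold higher or more and 1.41% at 2-fold lower or less. At 48 h the median was 0.952 over 10112 genes, with 1.54% and 3.62% past those limits. At 24 h, 1 of the 10 genes was past 2-fold, Tead1, with 65.7 in cholesterol-loaded and 27.2 in control cells (ratio 2.42, 95% counting interval 1.81 to 3.26). That start site lies inside the gene, at position 112759384 of chromosome 7, and had 2 regions in cholesterol-loaded and 1 in control cells. At the other listed start site of Tead1, upstream at 112679320, the signal was 697 in cholesterol-loaded and 641 in control cells at 24 h. At 48 h it was 562 in cholesterol-loaded and 625 in control cells. With the start sites of all transcripts counted, Tead1 had a ratio of 1.14 at 24 h, and no member was past 2-fold. Per kilobase of region, Tead1 had 31.8 in cholesterol-loaded and 35.8 in control cells.

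At 48 h none of the 10 was past 2-fold. Ankrd1 had 636 in cholesterol-loaded and 918 in control cells (ratio 0.693, 95% counting interval 0.641 to 0.749). Its region covered 6080 bp in cholesterol-loaded and 12354 bp in control cells, so that the signal per kilobase was 105 in cholesterol-loaded and 74.3 in control cells. Within 5 kb of the start site the ratio for Ankrd1 was 0.789. Ctgf had 947 in cholesterol-loaded and 1162 in control cells (ratio 0.815, interval 0.763 to 0.870), and Cyr61 had 1216 and 1438 (ratio 0.846, interval 0.798 to 0.896). Per kilobase of region the ratio was 0.928 for Ctgf and 0.923 for Cyr61, both above these intervals. Over all genes the lower quartile of the ratio of summed signal was 0.829 at 48 h. Amotl2 was at 1.09 (interval 1.05 to 1.13). Tead3, whose RNA was lower, had 445 in cholesterol-loaded and 383 in control cells at 48 h (ratio 1.16, interval 1.05 to 1.29). Per kilobase of its region the signal of Tead3 was 95.1 in cholesterol-loaded and 101.8 in control cells, a ratio of 0.934, so the direction depended on this choice.

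**Figure D5:**
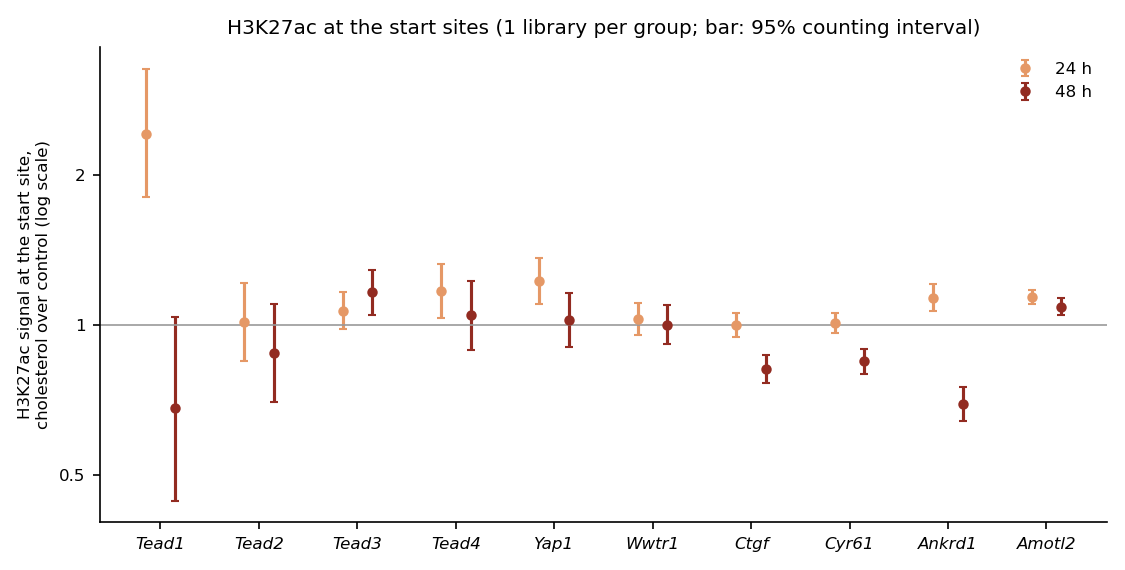
Ratio of H3K27ac signal at the start site, cholesterol over control (y axis, log scale), for each of the 10 genes (x axis) at 24 h and at 48 h, from 1 library per group with 95% counting intervals. Ctgf, Cyr61 and Ankrd1 are near 1 at 24 h and at 0.815, 0.846 and 0.693 at 48 h. Per kilobase of region, which is not drawn, their ratios at 48 h were 0.928, 0.923 and 1.41. Tead1 is at 2.42 at 24 h on a signal of 65.7 in cholesterol-loaded and 27.2 in control cells.

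Within 50 kb of the start site, Ankrd1 had a further strong region upstream, at chr19:36127178-36135934 in cholesterol-loaded and chr19:36127514-36135504 in control cells at 24 h (mm10), with a signal of 1131 in cholesterol-loaded and 983 in control cells. Its centre lay at -11712 and -11665 bp from the start site, and it was stronger than the region at the start site itself.

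The TEAD core was also counted in the regions at the start sites, in the list of control cells at 24 h, for the 7 genes with a listed promoter. There were 1.17 matches per kilobase at Tead3, 0.98 at Yap1, 0.91 at Cyr61, 0.85 at Ankrd1, 0.85 at Amotl2, 0.7 at Wwtr1 and none at Tead2. Over 11106 genes with a region the median was 0.42 and the upper quartile 0.78, so that 5 of the 7 lay above that quartile. The AP-1 element was found 0.65 times per kilobase at Yap1, 0.51 at Ankrd1, 0.24 at Amotl2, 0.2 at Cyr61, 0.14 at Wwtr1 and not at Tead2 or Tead3, beside an upper quartile of 0.4 over all genes with a region. These counts describe sequence, in regions of very different length.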

How the data were processed

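RNA and H3K27ac values came from the deposited processed files, and mm10 was the build. Per the paper's methods, the authors aligned RNA reads with STAR and computed RPKM with HOMER over whole gene bodies, introns included. The deposited table's name gives 1 tag per position and its column headers name FPKM. No value column was left unmapped. The authors aligned ChIP reads with Bowtie2 and called regions with HOMER per library against its input. The deposited region lists give signal (tags scaled to 10000000), a fold (ratio) over input of at least 4 and a p-value. Versions of STAR, Bowtie2 and HOMER are not given in the sources used here. The authors' DESeq2 test was not repeated, since RPKM are not counts. Columns of input libraries were used only through these lists.

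RPKM were scaled by median-of-ratios factors (0.904 to 1.06), genes were kept if their estimated reads exceeded 70 in 1 library or more, and log2(RPKM + 1) was tested with limma 3.58.1 in R 4.3.3 on all 14 RNA libraries with a trended prior, with Benjamini-Hochberg adjustment over 12648 genes. Values were whole multiples of 1 tag, within 0.25 tags, for 100.0% of those examined, which gave the depth of each library. Other steps used Python 3.11.15 with pandas 2.3.3, numpy 2.4.6 and scipy 1.17.1, and figures matplotlib 3.10.9. Ratio intervals are exact 95% intervals for counts and cover counting error only. Promoters were taken from RefSeq. The test was run on simulated data first. All members were named, together with called genes of 3 lists (at most 6 a list), Lats1, Lats2, Nf2, Vgll4 and the 3 genes most like each member. Members and lists were chosen with earlier results of these data known. Alternatives covered the pseudocount, filters, normalization, weights, the groups in the model, the transcript row, the replicate block and each library left out. The correction for repeated positions and the filter on recovered tags were chosen after seeing the data.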

Additional observations from a re-analysis of the deposited data

Results flagged for a closer look

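In 2 genes of the pathway lists, limma's test of the 48 h response against the 24 h response, adjusted over all genes, was past the threshold. Frmd6 had a log2 fold change of 0.14 after 48 h and of -0.10 after 24 h of cholesterol, a difference of 0.24 (adjusted p = 0.036). Gadd45a had 1.46 after 48 h and 0.69 after 24 h, a difference of 0.78 (adjusted p = 0.000634).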

How the results depend on the processing

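The count of members called by limma for cholesterol against control was 1 at 24 h and 1 at 48 h, and at both times fell to 0 with no filter on low values, RPKM as deposited, quantile normalization or the row with the longest gene body, and at 48 h also to 0 when the model held only the groups compared. Array weights gave 3 at 24 h and 2 at 48 h. Leaving out 1 library gave 0 to 1 at each time. The difference between the times called 0, and 1 (Tead4) with quantile normalization or array weights, and 0 to 0 with 1 library left out. For control cells at 24 h against 0 h the count was 0, 1 with voom on recovered tags, and 0 to 3 with 1 library left out: 3 (Ctgf, Cyr61 and Ankrd1, all lower) without control replicate 3 at 0 h. For control cells at 48 h against 0 h it was 2, 3 with quantile normalization (Tead4 added), 1 with array weights, 0 with only the groups compared, and 0 to 5 with 1 library left out: 0 without control replicate 2 at 48 h and 5 without control replicate 1 at 0 h, a library of 2726786 tags. For cholesterol-loaded cells at 48 h against 24 h it was 5, and 4 to 7 under the other settings: only the groups compared ended the calls of Tead2 and Tead3, quantile normalization or no filter on low values ended that of Cyr61, and array weights added Yap1 and Ctgf. It was 2 to 6 with 1 library left out: 2 without cholesterol replicate 1 or 2 at 24 h or replicate 3 at 48 h. The F-test called 1, 2 with quantile normalization or only the groups compared, 3 with array weights, and 1 to 2 with 1 library left out. In H3K27ac at 24 h, 1 member was past 2-fold and 0 with a window of 500 bp, a fold over input of at least 8, start sites of all transcripts, a limit of 4-fold or signal per kilobase. Where a group kept 1 library, it was assumed to vary like the others. The causes were not tested.

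Replicate numbers did not pair the libraries: same-numbered deviations correlated at -0.28 to 0.127. With the replicate number as a block, the counts were 1 at 24 h, 1 at 48 h, 0 for the difference, 0 and 2 for control cells at 24 and 48 h against 0 h, 4 for cholesterol-loaded cells at 48 h against 24 h (without Cyr61) and 1 in the F-test. Depth limits Tead4 most among the members, with 75 to 325 tags a library.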
